A study of Homo sapiens with 34 samples.

Results

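The genes described are 10 transcription factors known from mesenchyme and from the epithelial-to-mesenchymal transition (EMT), PRRX1, TWIST1, TWIST2, SNAI1, SNAI2, ZEB1, ZEB2, TCF21, TBX18 and FOXC1. They were taken by symbol from a table of 20255 genes, in which each symbol matched 1 row, and their levels were followed through 12 populations of differentiating H1 cells. All 10 passed the filter on low values (10 or more in 3 or more samples) and were among the 19788 genes tested.

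H1 is an established human embryonic stem cell line, and it was taken here to blood without added haematopoietic cytokines. RNA was sequenced in 34 samples, which are 1 sample of undifferentiated H1 cells and 3 replicates of each of the 11 other populations, described by the study as independent biological replicates. The unsorted populations were embryoid bodies (EBs) on day 0, labelled as treated with BMP4+hVEGF, and total cells on days 2 and 4, labelled hVEGF. The treatment protocol of the labels places the change to VEGF as the only growth factor on day 3. In the methods of the study, day 0 is the start of EB attachment, and neither BMP4 nor VEGF is listed for the medium in which EBs formed. Both were given during attachment, and VEGF alone from day 2. By that account the step from day 0 to day 2 spans the exposure to BMP4 and VEGF. The sorted populations, all labelled hVEGF, were CD43- and CD43+ cells on days 6, 9 and 12, CD43-CD45- cells on day 16 and CD43+/CD45+ cells on day 16, called CD43- and CD43+ here. CD43, encoded by SPN, is a surface protein of blood cells, so the CD43+ cells are the blood fraction and the CD43- cells are all else in the culture. The cells came from 1 cell line, the CD43- fraction is a mixture of cell types, and 1 sample of undifferentiated cells gives no error.

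EMT is the change in which cells of a sheet lose their junctions and become single, motile cells. It first takes place at gastrulation, when epiblast cells pass through the primitive streak and become mesoderm, and transcription factors of the SNAI, ZEB and TWIST families are its best known drivers. SNAI1, SNAI2, ZEB1 and ZEB2 are zinc finger repressors that bind E-box sequences such as CACCTG in promoters of epithelial genes, CDH1 (E-cadherin) among them. TWIST1, TWIST2 and TCF21 are basic helix-loop-helix factors that pair with E-proteins, PRRX1 is a homeobox factor of lateral plate and limb mesenchyme, TBX18 is a T-box factor of the epicardium and of mural cells, and FOXC1 is a forkhead factor of paraxial mesoderm, neural crest and vessels. In blood, ZEB2 is known as a factor of progenitors and of the myeloid line.

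On GRCh38, the genes lie at chr1:170662728-170739419 (PRRX1), chr7:19020991-19117672 (TWIST1), chr2:238848032-238910543 (TWIST2), chr20:49982999-49988886 (SNAI1), chr8:48917690-48921740 (SNAI2), chr10:31318495-31529814 (ZEB1), chr2:144384081-144524583 (ZEB2), chr6:133889138-133895553 (TCF21), chr6:84687351-84764519 (TBX18) and chr6:1609972-1613897 (FOXC1). All are protein-coding genes, and none overlaps another of the 10. Antisense genes overlap ZEB1 (ZEB1-AS1), ZEB2 (ZEB2-AS1 and AC009951.2), TCF21 (TARID), TBX18 (TBX18-AS1) and TWIST1 (AC003986.2), a non-coding gene on the same strand overlaps PRRX1 (Z97200.1), and whether the counting used strand is not given in the sources used here, so reads of these partners cannot be told apart from their own. Pseudogenes also overlap ZEB1 (SPTLC1P1 and AL117340.1) and TBX18 (AL590143.1), and AC009951.1, RF01984, RF01986 and RF01987 overlap ZEB2. These genes, TBX18-AS1 and AC009951.2 have no row in the table. The other partners were low, with highest values over the 34 samples of 112 for ZEB1-AS1, 230 for ZEB2-AS1, 30 for TARID, 6 for AC003986.2 and 84 for Z97200.1.

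Values are the normalized tag counts of the authors, rounded to whole numbers and not divided by gene length, so levels are compared between populations for 1 gene and never between genes. Every sample held the same values in another order, with a total of 17856940, a median of 197 and a maximum of 90700, so the library depth is unknown and errors come from the replicates alone. Differences are on the log2(value + 1) scale, where a difference of 2 is 4-fold, with the standard error (SE) of limma and a p-value adjusted by Benjamini-Hochberg over all genes tested. A gene is said to have risen or fallen only at an adjusted p below 0.05 and a difference of over 4-fold.

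The labels were checked against marker genes. SPN was at 19 to 49 in day 6 CD43- cells and at 5979 to 8780 in day 6 CD43+ cells, and at 84 to 328 against 2338 to 2870 on day 16. PTPRC, which encodes CD45, was at 18, 42 and 22 in day 16 CD43- cells and at 12014, 10084 and 15868 in day 16 CD43+ cells. It was also at 4, 197 and 371 in the 3 replicates of day 12 CD43- cells, where the summed level of 7 macrophage markers was 280, 4443 and 5616, so replicates 2 and 3 of that population carried blood and macrophage markers that replicate 1 held at a lower level. The summed level of 10 blood cell markers was 572 to 951 in day 6, 651 to 933 in day 9, 846, 1859 and 7827 in day 12 and 7243, 19115 and 13370 in day 16 CD43- cells, against 135930 to 141785 in day 16 CD43+ cells. Of the 10 markers, 7 were higher in CD43- cells on day 16 than on day 6, where 6.91% of genes were, MPO (myeloperoxidase) among them. MPO added the most to the day 16 sums, with means of 8822 in CD43- and 90700 in CD43+ cells. The latter is the maximum value of a sample, and values are not divided by gene length, so the sums do not give a share of blood cells. The part of these cells in the day 12 and day 16 values of CD43- cells was not tested. The pluripotency factor POU5F1 was at 25776 to 28960 through days 0 and 2, at 2176 to 2618 on day 4 and at 618 to 1328 in day 6 CD43- cells.

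Most of the 10 factors rose before the blood cells were sorted, 6 of them in both steps from day 0 to day 4. From day 0 to day 2, 8 of the 10 rose, where 4.40% of all genes tested rose, and the median difference of the 10 was 3.25 against -0.01 over all genes tested. At a pseudocount of 10 in place of 1 the count was 4, since PRRX1, TWIST1, ZEB1 and TCF21, which were at 10 or below on day 0, then differed by 1.27, 1.77, 1.59 and 1.06, short of 4-fold. From day 2 to day 4, 6 rose again and 2 fell, where 4.97% of genes rose and 4.53% fell. The 2 that fell were SNAI1 and FOXC1, which were higher on day 2 than on days 0 and 4.

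**Figure D1:**
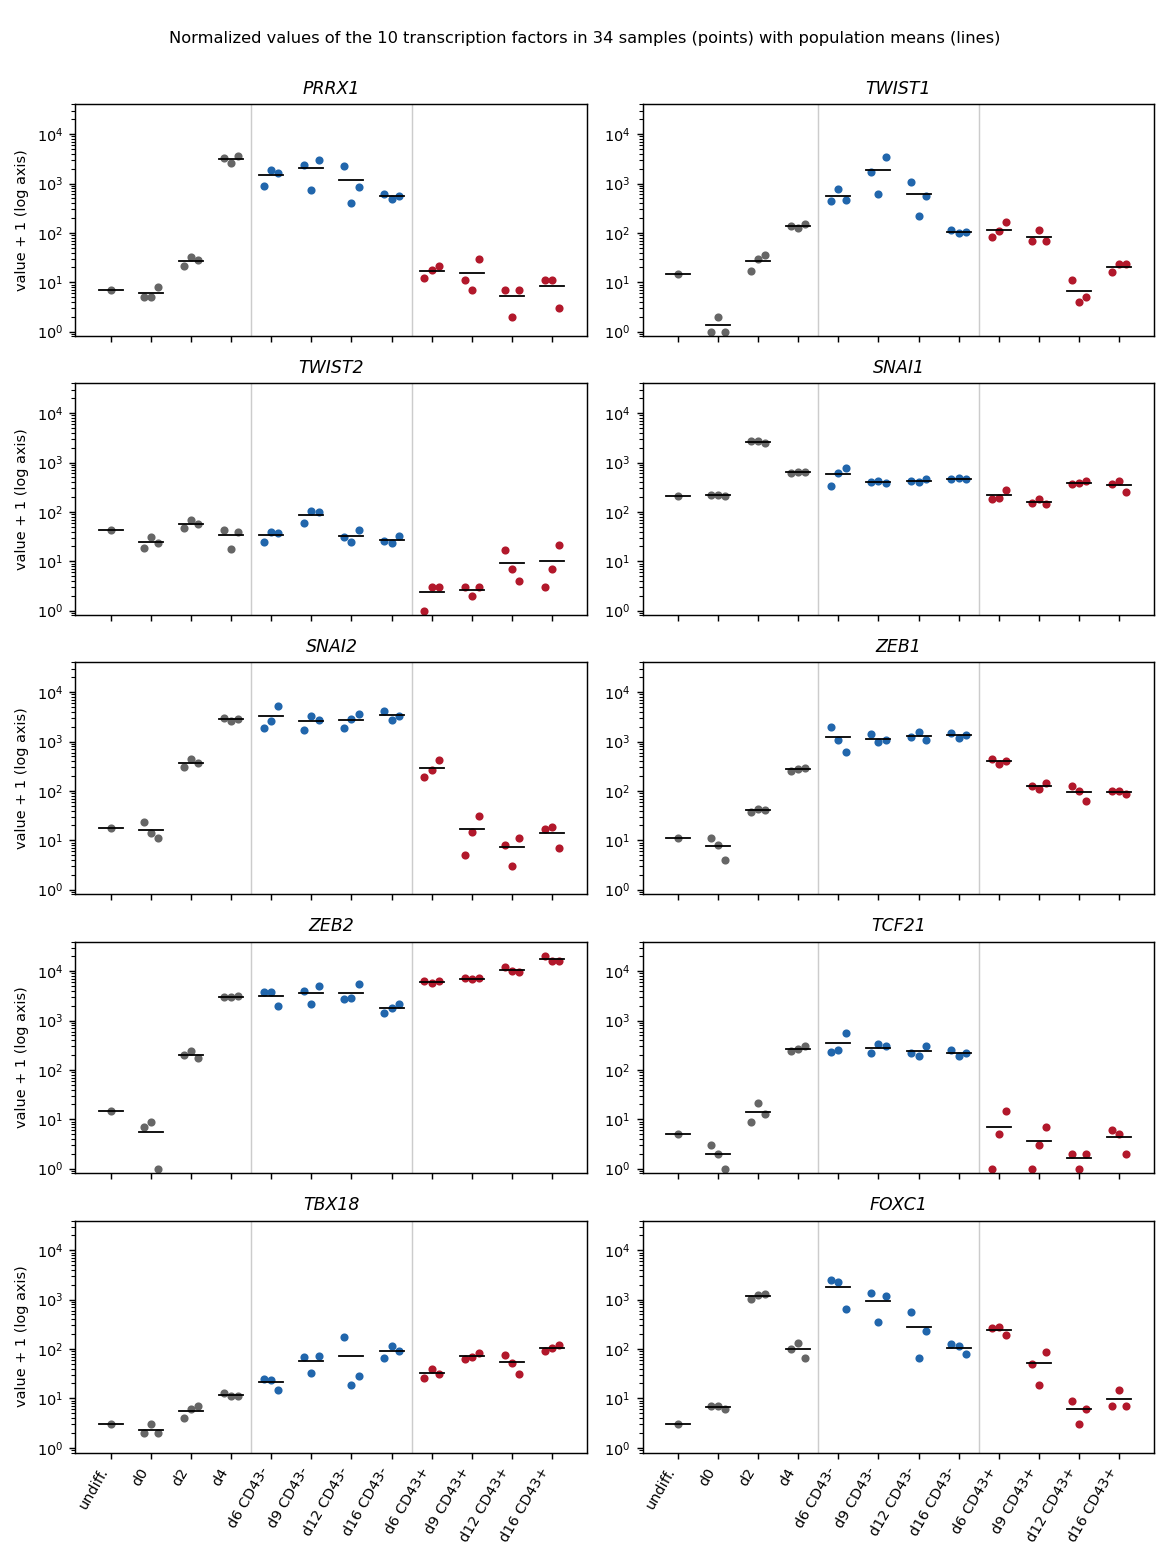
Value + 1 (log axis) of the 10 transcription factors in each of the 34 samples, with unsorted populations in grey, CD43- cells in blue and CD43+ cells in red, and short lines at the population means. SNAI1 peaks on day 2 at 2509 to 2733, PRRX1, SNAI2 and TCF21 are high on day 4 and in CD43- cells and low in CD43+ cells from day 9, and ZEB2 is highest in day 16 CD43+ cells at 15874 to 20431.

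SNAI1, the repressor most closely tied to the primitive streak, was at 218, 217 and 209 on day 0, at 2691, 2733 and 2509 on day 2 and at 615, 648 and 634 on day 4. The 3 day 2 samples lay above all other samples of the series. SNAI1 rose by 3.62 (SE 0.20, adjusted p = 1e-13) to day 2 and fell by 2.06 (SE 0.20, adjusted p = 5.92e-09) to day 4. FOXC1 followed the same course, from 6, 6 and 5 on day 0 to 1040, 1217 and 1290 on day 2 and back to 101, 133 and 66 on day 4. Its rise of 7.47 (SE 0.62, adjusted p = 3.28e-10) was the largest of the 10 in this step, and its later fall was 3.60 (SE 0.62, adjusted p = 4.37e-05).

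The other factors that rose did so in both steps. PRRX1 went from 4, 4 and 7 on day 0 to 20, 32 and 27 on day 2 and to 3282, 2602 and 3576 on day 4, with a rise of 6.86 (SE 0.61, adjusted p = 7.68e-10) in the second step. SNAI2 went from 22, 13 and 10 to 302, 449 and 370 and then to 2994, 2647 and 2930. ZEB2 went from 6, 8 and 0 to 196, 238 and 174 and then to 3000, 3064 and 3118. For these 3 genes, as for ZEB1, TCF21 and TWIST1, the samples of days 0, 2 and 4 did not overlap. Of all genes tested, 25.5% had every day 2 sample above every day 0 sample and 26.7% every day 4 sample above every day 2 sample. ZEB1 went from 10, 7 and 3 to 36, 42 and 40 and then to 252, 280 and 286. TCF21 went from 2, 1 and 0 to 8, 20 and 12 and then to 237, 270 and 298. TWIST1, a factor of cranial and limb mesenchyme, was listed at 0, 1 and 0 on day 0 and was at 16, 28 and 34 on day 2 and 136, 124 and 152 on day 4. TWIST2 and TBX18 were the pair that passed the test in neither step. TWIST2 was at 18, 30 and 22 on day 0, at 46, 66 and 57 on day 2 and at 42, 17 and 38 on day 4. TBX18 stayed at 12 or below through day 4.

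On day 6 the culture was sorted for the first time, and each fraction was compared with the day 4 cells. FOXC1 was the 1 factor that rose in CD43- cells against day 4, where 4.94% of genes rose, from 101, 133 and 66 to 2532, 2314 and 639 (difference 4.0, SE 0.62, adjusted p = 1.06e-05). TWIST1 differed by 1.98 (SE 0.51, adjusted p = 0.00251) and ZEB1 by 1.99 (SE 0.31, adjusted p = 1.28e-05), both just short of 4-fold. Leaving out 1 sample took TWIST1 past it, at 2.05 without day 4 replicate 3, 2.11 without CD43- replicate 1 and 2.09 without CD43- replicate 3. ZEB1 was past it at 2.01 without day 4 replicate 2, 2.02 without day 4 replicate 3 and 2.41 without CD43- replicate 3. With median-of-ratios scaling both were past it, at 2.08 for TWIST1 and 2.09 for ZEB1. In replicate 3 of these CD43- cells ZEB1 was at 600 against 1944 and 1082, FOXC1 was at 639 against 2532 and 2314, and the summed level of 10 endothelial markers was 38325 against 120422 and 88834. ZEB2 was also lowest in that replicate (1938 against 3726 in each of the others), while SNAI2 was highest there at 5188 against 1908 and 2660, TCF21 at 560 against 232 and 251 and SNAI1 at 791 against 336 and 618. The part of these cells in the spread of these factors was not tested.

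In day 6 CD43+ cells 4 factors fell against day 4, where 7.73% of genes fell. They were PRRX1 (-7.56, SE 0.61), TCF21 (-5.99, SE 0.69), TWIST2 (-3.90, SE 0.56) and SNAI2 (-3.35, SE 0.51), with adjusted p-values of 1.14e-10, 5.97e-08, 1.67e-06 and 5.06e-06. At a pseudocount of 10 the TWIST2 difference was -1.85, short of 4-fold. In these bulk samples, fewer cells that express a gene and less of its RNA in each cell cannot be told apart. ZEB1 was at 445, 348 and 408 and ZEB2 at 6256, 5644 and 6256 in day 6 CD43+ cells, both above their day 4 samples but not past the threshold (0.55, SE 0.31 and 0.98, SE 0.46). Of all genes tested, 34.3% had every day 6 CD43+ sample above every day 4 sample.

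Between CD43+ and CD43- cells of the same day, most of the 10 factors were lower in the blood fraction. On day 6, 6 of the 10 were lower in CD43+ cells, where 7.85% of genes tested were lower, with a median difference over the 10 of -2.47. On day 9, 7 were lower (12.8% of genes) with a median of -4.24, and on day 12, 7 were lower (14.4% of genes) with a median of -4.50. On day 16, 6 were lower (13.6% of genes) and 1, ZEB2, was higher (12.2% of genes), with a median of -2.95. The median over all genes tested was 0.14, 0.24, 0.22 and 0.14 on these 4 days. PRRX1, TWIST1, SNAI2, TCF21 and FOXC1 were lower on each of the 4 days, as the plot of differences by day shows, and SNAI1 and TBX18 passed the threshold on none of them.

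**Figure D2:**
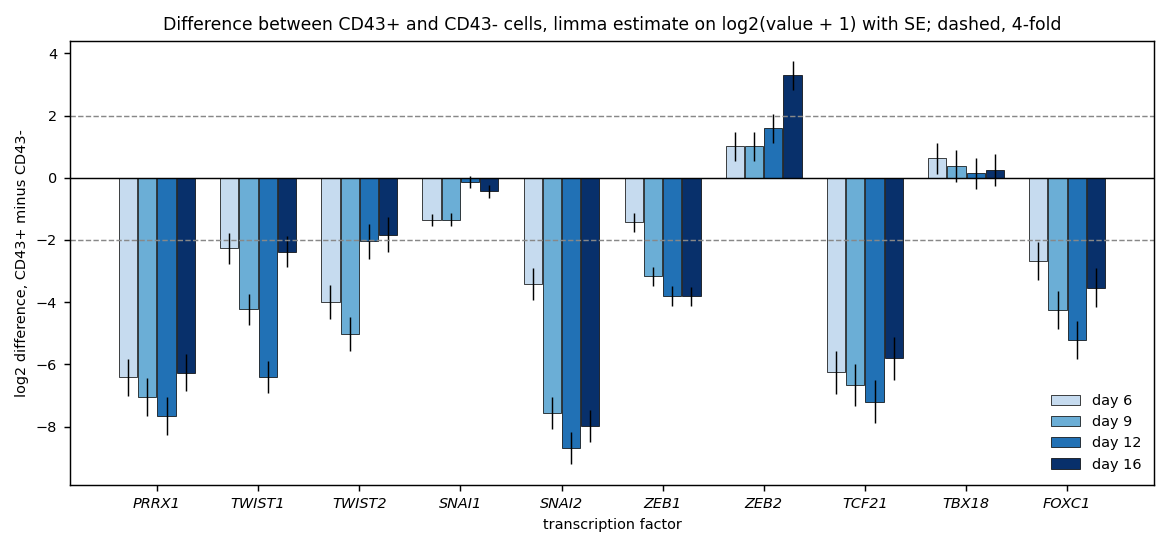
Log2 difference of CD43+ minus CD43- cells on days 6, 9, 12 and 16 for each transcription factor, as bars with the SE of limma (3 replicates a population), and dashed lines at 4-fold. Bars of PRRX1, SNAI2 and TCF21 reach -7.65, -8.70 and -7.20 on day 12, bars of ZEB2 lie above 0 on every day and reach 3.29 on day 16, and bars of TBX18 lie between 0.14 and 0.62.

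PRRX1 and TCF21 were lower in CD43+ than in CD43- cells on each day. PRRX1 was at 904, 1900 and 1645 in day 6 CD43- cells and at 11, 17 and 20 in day 6 CD43+ cells, a difference of -6.42 (SE 0.61, adjusted p = 1.93e-09). On day 16 it was at 612, 479 and 557 against 10, 10 and 2 (difference -6.26, SE 0.61, adjusted p = 7.42e-10). No CD43+ sample of any day exceeded 28. TCF21, a factor of the epicardium and of fibroblast progenitors, was at 232, 251 and 560 against 0, 4 and 14 on day 6 and at 254, 188 and 216 against 5, 4 and 1 on day 16. Its differences were -6.25 (SE 0.69, adjusted p = 2.87e-08) and -5.80 (SE 0.69, adjusted p = 3.11e-08).

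SNAI2, a repressor of neural crest and of mesenchyme, was still present in day 6 CD43+ cells and fell there afterwards. In CD43- cells it was at 1908, 2660 and 5188 on day 6, 1749, 3276 and 2743 on day 9, 1854, 2804 and 3646 on day 12 and 4148, 2730 and 3276 on day 16, with overlap between every pair of days. In CD43+ cells it was at 192, 259 and 432 on day 6, then at 4, 14 and 30 on day 9, 7, 2 and 10 on day 12 and 16, 18 and 6 on day 16. The difference between the fractions went from -3.41 (SE 0.51, adjusted p = 3.98e-06) on day 6 to -7.56 (SE 0.51, adjusted p = 1.21e-12) on day 9. SNAI1, its relative, was closer between the fractions, with 336, 618 and 791 against 185, 188 and 281 on day 6 and 422, 400 and 460 against 359, 380 and 431 on day 12. Its differences on days 6, 9, 12 and 16 were -1.35, -1.35, -0.13 and -0.44 with an SE of 0.20 each, none past 4-fold.

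ZEB1 and ZEB2 are paralogues with shared binding sites, and on day 16 they lay on opposite sides of the sort. ZEB1 was at 1944, 1082 and 600 in CD43- and 445, 348 and 408 in CD43+ cells on day 6. On day 16 it was at 1464, 1180 and 1388 against 100, 97 and 86, a difference of -3.82 (SE 0.31, adjusted p = 3.33e-11). ZEB2 was at 3726, 3726 and 1938 in CD43- and 6256, 5644 and 6256 in CD43+ cells on day 6, and at 1434, 1791 and 2118 against 20431, 15874 and 15874 on day 16. Its CD43+ samples were above its CD43- samples on each of the 4 days, as was so for 33.9%, 42.2%, 35.2% and 40.3% of all genes tested on days 6, 9, 12 and 16, and the difference passed the threshold on day 16 (3.29, SE 0.46, adjusted p = 5.28e-07). It was 1.01 (SE 0.46) on days 6 and 9 and 1.59 (SE 0.46, adjusted p = 0.00361) on day 12. In CD43+ cells the 3 values of ZEB2 on each day lay above those of the day before, with 7165, 6826 and 7165 on day 9 and 12018, 10085 and 9728 on day 12. Of all genes tested, 26.5%, 26.6% and 23.7% had all 3 values above those of the day before in these 3 steps. The step from day 6 to day 16 was 1.51 (SE 0.46, adjusted p = 0.00573), under 4-fold. Macrophage markers stood high in the same samples, with all 7 of the list higher in CD43+ than in CD43- cells on days 12 and 16 (11.8% and 12.2% of all genes) and a summed level of 53609 to 61586 in day 16 CD43+ cells against 801 to 1209 in day 6 CD43+ cells. CSF1R added the most to this sum of values not divided by gene length, and the part of these cells in the ZEB2 values was not tested.

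TWIST1 and TWIST2 differed in course. TWIST1 was at 446, 772 and 460 in CD43- cells on day 6, 1726, 620 and 3378 on day 9, 1052, 220 and 568 on day 12 and 113, 97 and 104 on day 16. In CD43+ cells it was at 80, 106 and 162 on day 6, 68, 114 and 68 on day 9, 10, 3 and 4 on day 12 and 15, 22 and 22 on day 16. Its difference between the fractions was -2.27 (SE 0.51, adjusted p = 0.000539) on day 6, -4.23 on day 9, -6.40 (SE 0.51, adjusted p = 1.58e-11) on day 12 and -2.37 (SE 0.51, adjusted p = 0.000191) on day 16, the last being -1.96 and short of 4-fold at a pseudocount of 10. TWIST2 had no sample above 104 and was at 2 or below in CD43+ cells of days 6 and 9. On day 6 TWIST2 was at 24, 38 and 36 against 0, 2 and 2 (difference -3.99, SE 0.56, adjusted p = 1.24e-06), and on day 9 at 58, 104 and 100 against 2, 1 and 2 (difference -5.03, SE 0.56). At a pseudocount of 10 the day 6 difference of TWIST2 was -1.90 and that of day 12 was -1.24, both short of 4-fold. On day 12 it was at 30, 24 and 42 against 16, 6 and 3. The TWIST2 difference of -2.04 (SE 0.56) on that day rested on single samples, being -1.56 without CD43+ replicate 3, -1.96 without CD43+ replicate 2 and -1.83 without CD43- replicate 3, all under 4-fold. On day 16 its difference of -1.83 (SE 0.56, adjusted p = 0.00513) did not pass, and it passed at -2.04 with a pseudocount of 0.1 and at -2.56 without CD43+ replicate 3, where TWIST2 was at 20 against 2 and 6.

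FOXC1 fell in both fractions between days 6 and 16 and was lower in CD43+ cells on each day. In CD43- cells it was at 2532, 2314 and 639 on day 6, 1332, 354 and 1174 on day 9, 552, 65 and 226 on day 12 and 124, 114 and 78 on day 16. In CD43+ cells it was at 266, 282 and 189 on day 6, 48, 18 and 85 on day 9, 8, 2 and 5 on day 12 and 6, 14 and 6 on day 16. The difference was -2.68 (SE 0.62, adjusted p = 0.000815) on day 6 and -5.21 (SE 0.62, adjusted p = 3.48e-08) on day 12. TBX18 passed the threshold on none of the 4 days. It was at 24, 22 and 14 in CD43- and 25, 38 and 30 in CD43+ cells on day 6, and at 64, 112 and 90 against 90, 102 and 121 on day 16. Its differences of 0.62, 0.39, 0.14 and 0.26 on the 4 days had an SE of 0.51 each.

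Within CD43- cells, FOXC1 and TWIST1 were the members that passed the threshold between successive days, each in 1 step. From day 6 to day 9 none of the 10 passed the threshold of limma's test, where 1.75% of genes did so in either direction. In this step 4 of them had an unadjusted p below 0.05, a looser cut for which the share over all genes is not given here. TWIST1 was the one with the largest difference in this step, 1.5 (SE 0.51, adjusted p = 0.0749), and it was 2.16 and past the threshold without replicate 2 of day 9. From day 9 to day 12 FOXC1 fell by 2.02 (SE 0.62, adjusted p = 0.0125), where 2.80% of genes fell. The call was lost without any 1 of 3 samples, with differences of -1.67 without day 9 replicate 1, -1.77 without day 9 replicate 3 and -1.21 without day 12 replicate 2. It was also lost at a pseudocount of 10 (-1.95), with median-of-ratios scaling (-1.97) and in a fit of only the populations compared. From day 12 to day 16 TWIST1 fell by 2.27 (SE 0.51, adjusted p = 0.0007), where 5.97% of genes fell, and the difference was -1.75 and short of 4-fold without day 12 replicate 1.

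Over the whole of days 6 to 16, TWIST1 fell by 2.36 (SE 0.51, adjusted p = 0.00031) and FOXC1 fell by 3.90 (SE 0.62, adjusted p = 7.74e-06) in CD43- cells, where 6.26% of genes fell. TBX18 rose by 2.09 (SE 0.51, adjusted p = 0.00111), where 6.91% of genes rose, from 24, 22 and 14 to 64, 112 and 90. The rise of TBX18 was 1.87 without day 6 replicate 3 and 1.91 without day 16 replicate 2, and 1.70 at a pseudocount of 10, all short of 4-fold. PRRX1 differed by -1.37 (SE 0.61, adjusted p = 0.0568), and SNAI2, ZEB1, TCF21 and TWIST2 differed by 0.16, 0.31, -0.55 and -0.29 with SEs of 0.51, 0.31, 0.69 and 0.56. PRRX1, TWIST1, FOXC1 and TBX18 were each lowest of the 3 samples in replicate 2 on days 9 and 12, at 732, 620, 354 and 32 on day 9 and at 398, 220, 65 and 18 on day 12. On day 12 the summed macrophage markers were 280, 4443 and 5616 in replicates 1 to 3, and the endothelial ones 37256, 53038 and 36367. The part of these cells in the values was not tested.

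Within CD43+ cells, SNAI2 fell by 4.40 (SE 0.51, adjusted p = 2.06e-07) and FOXC1 fell by 2.50 (SE 0.62, adjusted p = 0.00298) from day 6 to day 9, where 3.97% of genes fell, and the FOXC1 difference was -1.90 without day 9 replicate 2. From day 9 to day 12 TWIST1 fell by 3.76 (SE 0.51, adjusted p = 6.11e-07) and FOXC1 fell by 2.98 (SE 0.62, adjusted p = 0.000219), where 6.54% of genes fell. At a pseudocount of 10 the FOXC1 difference of this step was -1.86, short of 4-fold. SNAI1 differed by 1.29 (SE 0.20, adjusted p = 5.81e-06) in the same step, from 150, 184 and 144 to 359, 380 and 431, which is under 4-fold. From day 12 to day 16 none of the 10 passed the threshold of limma's test, where 9.05% of genes did so in either direction. In this step 2 of them had an unadjusted p below 0.05, a looser cut for which the share over all genes is not given here. TWIST1 was the one with the largest difference, 1.76 (SE 0.51, adjusted p = 0.00695), and it was 2.19 and past the threshold without day 12 replicate 1.

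From day 6 to day 16, 4 of the 10 fell in CD43+ cells, where 10.7% of genes fell. These were FOXC1 (-4.75, SE 0.62), SNAI2 (-4.41, SE 0.51), TWIST1 (-2.46, SE 0.51) and ZEB1 (-2.07, SE 0.31), and the ZEB1 difference was -1.99 without day 6 replicate 1, -1.97 at a pseudocount of 10 and -1.89 with median-of-ratios scaling, each short of 4-fold. TWIST2 differed by 1.87 (SE 0.56, adjusted p = 0.00459), short of 4-fold, and it passed the threshold without day 6 replicate 2 or 3, at 2.14 in either case, or without day 16 replicate 1, at 2.54, and also at a pseudocount of 0.1, at 3.06. TBX18 differed by 1.73 (SE 0.51, adjusted p = 0.00449), from 25, 38 and 30 to 90, 102 and 121.

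Whether the gap between the fractions itself changed was tested between successive days. For SNAI2 the gap widened from day 6 to day 9, where 7.39% of genes changed their gap in either direction. From day 9 to day 12 it widened for TWIST1, where 4.39% of genes changed towards lower CD43+ levels, and narrowed for TWIST2, where 4.61% changed towards higher ones. From day 12 to day 16 it narrowed for TWIST1, where 5.03% of genes changed. The change of TWIST1 from day 9 to day 12 was -2.17 (SE 0.72, adjusted p = 0.0249), and it was between -1.52 and -2.03, and no longer past the threshold, without CD43- replicate 2 or CD43+ replicate 2 of day 9, CD43- replicate 1 of day 12, or CD43+ replicates 2 or 3 of day 12. It no longer passed at a pseudocount of 0.1 (-2.41) or 10 (-0.99) or in a fit of only the populations compared. The change of TWIST2 in the same step was 1.79, short of 4-fold, at a pseudocount of 10.

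Partners and regulators of the 10 factors were compared through lists. These lists and those below were written from general knowledge, but with earlier results of these data known. Their counts are therefore a description and not an independent test. Of 16 cofactors and inhibitors, such as the E-proteins TCF3, TCF4 and TCF12, the corepressor CTBP1 and the ID proteins, which bind E-proteins without binding DNA, 1 was lower in CD43+ cells on day 6 and 3, 3 and 2 on days 9, 12 and 16, with medians of the list of 0.00, 0.14, -0.39 and -0.29. Over all genes tested 7.85%, 12.8%, 14.4% and 13.6% were lower on these days, and the counts of this list lie near those shares. ID3 was the one on day 6, at 777 ± 200 (SD, n = 3) against 4388 ± 238 in CD43- cells (difference -2.52). On day 16 the 2 were ID3 (-2.23) and ID4 (-6.25). Of 25 ligands, receptors and SMAD proteins of the TGF-beta and BMP pathways, which induce many of the 10 factors, 7, 10, 12 and 10 were lower in CD43+ cells on days 6, 9, 12 and 16 (7.85%, 12.8%, 14.4% and 13.6% of all genes). BMP4, a ligand of ventral mesoderm that had also been added to the EBs, was at 122 ± 12 in CD43+ and 2615 ± 758 in CD43- cells on day 6 and at 22 ± 10 against 1970 ± 41 on day 16. TGFB2, a ligand of cardiac EMT, differed by -4.33 on day 6, and TGFBR3, a coreceptor for it, differed by -7.29 on day 16. TGFB1, named after its values were seen, went the other way without passing the threshold, with a mean of 6674 in CD43+ and 3595 in CD43- cells on day 6 and differences of 0.93, 1.42, 0.73 and 0.55 (SE 0.21) on the 4 days. NODAL, the ligand of the primitive streak, had fallen by 4.31 from day 2 to day 4.

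A further 30 transcription factors of mesoderm and mesenchyme were followed as a list. From day 0 to day 2, 21 of them rose (4.40% of all genes) and 1 fell (3.48%), with a median of 3.86. From day 2 to day 4, 9 rose (4.97%), 4 fell (4.53%) and 17 did not pass, with a median of 0.65. In that step TBXT, the factor that marks the primitive streak, fell by 6.89 from 12678 ± 668 to 111 ± 40 and MESP1, a factor of nascent mesoderm, fell by 6.19, while HAND2, of lateral plate and heart, rose by 7.15 from 16 ± 7 to 2295 ± 567. In CD43+ against CD43- cells, 16, 23, 22 and 18 of the 30 were lower on days 6, 9, 12 and 16 (7.85%, 12.8%, 14.4% and 13.6% of all genes), with medians of -2.09, -4.02, -5.14 and -4.69. On days 9, 12 and 16, 4, 1 and 2 of the 30 were higher in CD43+ cells (8.65%, 11.8% and 12.2% of all genes). TBX2 and FOXF1 showed the largest falls on day 6 (-5.52 and -5.01), and HAND1 was at 71 ± 28 against 7979 ± 622 on day 16. SNAI3, the third SNAI gene, was on the other side on day 16, at 185 ± 11 in CD43+ and 25 ± 6 in CD43- cells (difference 2.84, adjusted p = 9.2e-07).

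Epithelial genes, which SNAI, ZEB and TWIST factors are known to repress, were followed as a list of 30. From day 2 to day 4, 11 of the 30 fell, where 4.53% of genes fell, with a median of -1.69. CDH1 was at 7633, 8276 and 6070 on day 0, at 7910, 8798 and 8276 on day 2 and at 1556, 1492 and 1492 on day 4, and its difference from day 0 to day 2, when SNAI1 was at its highest, was 0.20 (SE 0.40). The fall of CDH1 from day 2 to day 4 was 2.46 (SE 0.40, adjusted p = 1.6e-05). MAL2, a protein of apical transport, fell by 3.93 and GRHL2, a factor that maintains epithelia, fell by 3.33 in that step. KRT8, a keratin of simple epithelia chosen here after its values were seen, went the other way, from a mean of 18198 to 62274 (difference 1.73, SE 0.29, adjusted p = 3.28e-05), short of 4-fold, and with it the summed level of the 30 genes went from a mean of 85042 to 131834. In CD43- cells of day 6 against day 4 the median of the 30 was -0.16, and CDH1 was at 708, 1292 and 1110.

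In CD43+ cells epithelial genes were lower than in CD43- cells, with 22, 24, 22 and 24 of the 30 past the threshold on days 6, 9, 12 and 16 (7.85%, 12.8%, 14.4% and 13.6% of all genes) and medians of -3.48, -3.61, -4.70 and -3.39. CDH1 was at 13, 27 and 12 in day 6 CD43+ cells (difference to CD43- cells -5.87, SE 0.40, adjusted p = 4.5e-12). In CD43- cells it was at 3377, 5641 and 1866 on day 9 and at 4610, 5558 and 4846 on day 16, a rise of 2.31 from day 6 (SE 0.40, adjusted p = 1.88e-05). It was the 1 gene of the 30 that rose between these days (6.91% of all genes), and 1, KRT8, fell (6.26%), with a median of the list of 0.10. DSP, a desmosome protein, was at 149 ± 47 in CD43+ and 22201 ± 3143 in CD43- cells on day 16. Genes of endoderm and liver stood high in the same day 16 CD43- samples, with all 8 of the list lower in CD43+ cells, summed levels of 22622, 13485 and 20657, to which AFP added the most (values not divided by gene length). The part of these cells in the epithelial values was not tested.

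The E-box CAGGTG, read as CACCTG on the other strand, was searched on both strands in the 250 bases before the RefSeq start sites (GRCh38.p14). It was found in 20.6% of 27305 genes with an entry, in 9 of 14 epithelial genes (64.3%), in 1 of 13 mesenchymal effector genes and in 1 of 7 of the 10 factors, ZEB1. Several of the epithelial genes are textbook targets of these repressors, so the list was not chosen blind to the motif, and base composition was not compared. CDH1, SNAI1, SNAI2 and TWIST1 had no entry. Upstream sequences are shown for 2 of the 9 epithelial genes with a match, AP1M2 (a clathrin adaptor subunit of epithelia) and RAB25 (an epithelial trafficking GTPase). They run 5′ to 3′ on the strand of the gene, with the motifs in capitals. These 2 genes are shown because their levels fell with CDH1. Both were chosen after their values were seen, and not all genes with the motif took this course. CLDN7, a claudin, fell by 2.10 from day 2 to day 4 but passed the threshold between the fractions on none of the 4 days (-0.49 on day 6), and CRB3, a protein of apical polarity, was short of 4-fold from day 2 to day 4 (-1.68) and lower in CD43+ cells on day 6 (-5.33).
AP1M2: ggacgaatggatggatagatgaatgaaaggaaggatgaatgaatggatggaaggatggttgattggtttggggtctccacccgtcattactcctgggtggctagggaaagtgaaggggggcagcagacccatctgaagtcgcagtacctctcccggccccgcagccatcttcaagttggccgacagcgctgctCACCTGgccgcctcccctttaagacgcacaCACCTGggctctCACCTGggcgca
RAB25: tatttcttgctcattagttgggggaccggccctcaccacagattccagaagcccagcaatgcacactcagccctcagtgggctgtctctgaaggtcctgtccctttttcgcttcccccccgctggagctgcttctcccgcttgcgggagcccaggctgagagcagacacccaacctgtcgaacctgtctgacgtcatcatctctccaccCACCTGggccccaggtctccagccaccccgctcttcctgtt
The AP1M2 sequence is chr19:10587316-10587562 on the minus strand, without the 3 bases next to the start site, which an annotated exon covers. Its matches begin 57, 27 and 15 bases before the start site itself, and the RAB25 sequence is chr1:156060910-156061159 on the plus strand, with 1 match that begins 41 bases before it. AP1M2 was at 1992, 1764 and 1846 on day 2, 258, 272 and 207 on day 4 and 78, 194 and 136 in CD43- against 3, 1 and 1 in CD43+ cells on day 6. RAB25 was at 620, 540 and 608, then 141, 144 and 128, and then 52, 101 and 124 against 2, 6 and 10. From day 2 to day 4 AP1M2 fell by 2.93 (SE 0.57, adjusted p = 0.00016) and RAB25 fell by 2.09 (SE 0.56, adjusted p = 0.0043). A match is a description of the sequence and does not show that a factor binds there.

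Mesenchymal effector genes, which encode matrix, filaments and adhesion proteins of mesenchymal cells, were followed as a list of 24. From day 0 to day 2, 6 rose (4.40% of all genes), and from day 2 to day 4, 14 rose (4.97%) with a median of 2.47, among them the collagen gene COL3A1 (by 12.08, from 13 ± 5 to 62271 ± 24620) and LUM, a matrix proteoglycan (by 10.92). VIM, the intermediate filament vimentin, went from 2690, 3116 and 3048 to 48050 in each of the 3 samples in that step. CDH2, N-cadherin, had risen earlier, by 3.30 (SE 0.47) from day 0 to 8975, 10084 and 8278 on day 2. CDH1 and CDH2 were thus both high in the unsorted day 2 samples, where RNA of the same cells and of different cells cannot be told apart. On day 4 CDH1 had fallen while CDH2 differed by -1.57 (SE 0.47, adjusted p = 0.0093), short of 4-fold.

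In CD43+ against CD43- cells 16, 22, 22 and 22 of the 24 effector genes were lower on days 6, 9, 12 and 16 (7.85%, 12.8%, 14.4% and 13.6% of all genes), with medians of -2.77, -5.37, -5.54 and -5.35. POSTN, a matrix protein of mesenchyme, was at 61 ± 4 against 13783 ± 5764 on day 6 and at 193 ± 25 against 33414 ± 6533 on day 16, and CDH11, the cadherin of mesenchyme, differed by -8.46 on day 16. VIM was the 1 gene of the 24 that passed the threshold on none of the 4 days. It was at 37182, 37182 and 48050 in CD43+ and 37182, 29020 and 29020 in CD43- cells on day 16 (difference 0.36, SE 0.25), and its differences were -1.26 and -1.86 (SE 0.25) on days 6 and 9. In the plot of list medians by sample, the lowest of the CD43- samples lay above the highest of the CD43+ samples in both lists.

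**Figure D3:**
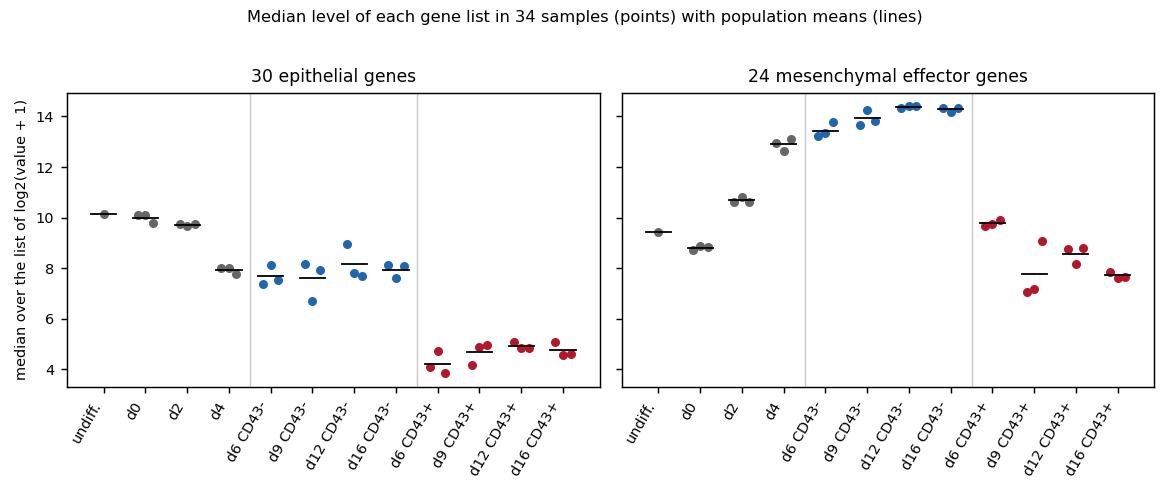
Median over 30 epithelial genes (left) and 24 mesenchymal effector genes (right) of log2(value + 1) in each of the 34 samples, in grey for unsorted, blue for CD43- and red for CD43+ cells, with short lines at the population means. CD43- samples lie between 6.71 and 8.97 for epithelial genes and between 13.22 and 14.40 for effector genes, and CD43+ samples lie between 3.85 and 5.08 and between 7.06 and 9.91.

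The order of the populations by mean level was read for each factor. For SNAI1, day 2 stood above all and did not overlap the next, day 4. For ZEB2 the order was CD43+ cells of day 16, 12, 9 and 6, each without overlap with the next, and then CD43- cells of days 12, 9 and 6 and day 4 cells, which overlapped. For PRRX1, SNAI2 and TCF21, day 4 and the 4 CD43- populations were the upper 5, all overlapping with their neighbours in the order and all above day 2. For ZEB1 the 4 CD43- populations overlapped one another and lay above day 6 CD43+ cells, which lay above day 4. Of all genes tested, 22.9% had every day 6 CD43+ sample below every day 6 CD43- sample. The share was 34.3% for day 6 CD43+ above day 4 samples and 31.1% for day 2 above day 4 samples. For TBX18 the 4 sorted populations of days 12 and 16 were among the upper 6, and neighbours from the first to the seventh place overlapped.

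Likeness of these patterns was described by Pearson's r over the 12 population means of log2(value + 1), which share 1 time course, 1 normalization and 1 undifferentiated sample. PRRX1 and TCF21 were the most alike (r = 0.98), followed by SNAI2 with TCF21 (0.95) and with PRRX1 (0.93). ZEB2 and TBX18 made a second pair (0.89). ZEB1 was closest to TWIST1 (0.88), with r of 0.78 to PRRX1 and 0.71 to ZEB2. Paralogues were not the closest pairs, with 0.22 for TWIST1 and TWIST2, 0.46 for SNAI1 and SNAI2 and 0.71 for ZEB1 and ZEB2, and TWIST2 and ZEB2 had the lowest r of all (-0.43).

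Among all other genes tested, those with the patterns most like each factor over the 12 populations were named. The closest to SNAI2 were ARHGAP29, FLRT2 and CDC42EP1 (r of 0.99, 0.98 and 0.98), and the closest to ZEB1 were SRPX2, FKBP9 and BMP1 (0.99, 0.99 and 0.98). For PRRX1 they were AC012531.25, ADGRF4 and PRDM6 (0.99, 0.99 and 0.98), and for TCF21 ADGRF4, ZCCHC24 and DDR2, a collagen receptor (0.99, 0.99 and 0.98), so that ADGRF4 was named for both. FOXC1 had its own relative FOXC2 in first place (0.93), followed by EOGT and SOX17 (both 0.92). TWIST1 was followed by TBX20, DLC1 and KIF26B (0.95, 0.94 and 0.93) and TWIST2 by SDC2, SOWAHC and CAMSAP2 (0.95, 0.94 and 0.93). Those of ZEB2 were SERPINB9P1, LINC00963 and LINC00936 (0.98, 0.97 and 0.97), and those of TBX18 ELF4, ARHGAP6 and MED8 (each 0.98). SNAI1 had the least close companions in HPGD, DLX6 and HOTAIRM1 (0.92, 0.91 and 0.90).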

How the data were processed

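RNA of 34 H1 samples was sequenced at 2 companies, and which sample was sequenced at which is not given in the sources used here. By the authors' account, bowtie2 and RSEM gave tag counts on an Ensembl annotation (hg38), and EDASeq removed effects of GC content and of the library. The deposited values are used as a normalized score, not as counts or CPM, and depth is unknown. The submitters' processing notes also name bcl2fastq and STAR 2.7. A GC percent for each gene, also deposited, entered no test. For the tests, limma 3.58.1 (R 4.3.3) was run on log2(value + 1), with a trend in its empirical Bayes step and no block, over the 33 samples that have replicates. The filter on low values left 467 genes untested. Same-numbered replicates of the CD43 fractions deviated together on day 6 (r of 0.20, 0.11 and 0.20), which was not so for all pairs on other days. Replicates of a population correlated at 0.951 to 0.987. The 10 genes and the lists were chosen with earlier results of these data known. Named were all 10, the 3 tested genes most like each, the 2 largest rises and falls of each list on days 6 and 16 and in the steps around day 4, and fixed markers. The test was checked on simulated data, and the outcome is not given here. Alternatives were another pseudocount, filter, scaling, fold or fit, a block, and leaving out each replicate. Tables were handled with pandas 2.3.3 and numpy 2.4.6.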

Additional observations from a re-analysis of the deposited data

Results flagged for a closer look

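Tests of the change in the CD43+ minus CD43- difference between successive days picked out 4 results, 1, 2 and 1 of the 10 factors in the 3 steps, where 7.39% of all genes tested changed in the first step, 4.39% downwards and 4.61% upwards in the next and 5.03% in the last, so the counts lie near the shares over all genes. For SNAI2 the difference changed by -4.15 (SE 0.73, adjusted p = 0.000193 by limma) from day 6 to day 9, as CD43+ values went from 192, 259 and 432 to 4, 14 and 30 while all CD43- values of both days lay between 1749 and 5188. For TWIST1 it changed by -2.17 (SE 0.72, adjusted p = 0.0249) from day 9 to day 12 and by 4.03 (SE 0.72, adjusted p = 0.000347) from day 12 to day 16, when CD43- values went from 1052, 220 and 568 to 113, 97 and 104 and CD43+ values from 10, 3 and 4 to 15, 22 and 22. The first of the TWIST1 changes was -1.52 without CD43- replicate 2 of day 9 and -0.99 at a pseudocount of 10. For TWIST2 the difference changed by 2.99 (SE 0.79, adjusted p = 0.00515) from day 9 to day 12, at values of at most 104 in CD43- and 16 in CD43+ cells, and this change was 1.79, short of 4-fold, at a pseudocount of 10. The day 12 CD43- samples held summed macrophage markers of 280, 4443 and 5616, whose part in these values was not tested.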

How the results depend on the processing

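Over 2818 recomputed differences of the 10 factors, 2759 kept their side of the threshold, 24 came to pass it and 35 no longer did. Of the 2759, 87 that passed in neither setting changed sign, and none that passed in either setting did. Counts of members called that moved by over 1.5 times, or to or from 0, were these, and the cause was not tested. At a pseudocount of 10 they were 4 from day 0 to day 2, 0 in CD43- and 1 in CD43+ cells from day 9 to day 12, and 0 for the change of the difference from day 9 to day 12, against 8, 1, 2 and 2. That last count was 1 at a pseudocount of 0.1, with a filter at 100 and in a fit of only the populations compared. The CD43- count from day 9 to day 12 was 0 with median-of-ratios scaling and in a fit of only the populations compared. For day 6 CD43- against day 4 cells it was 3 with that scaling and 3 at a fold above 2, against 1. At a fold above 2 it was 3 in CD43- and 5 in CD43+ cells from day 9 to day 12, 1 in CD43+ cells from day 12 to day 16, 7 from day 6 to day 16 and 2 for the change from day 6 to day 9. The shares of all genes that passed at a fold above 2 are not given here, so these counts cannot be set against them. Leaving out 1 replicate, counts ranged from 1 to 3 for day 6 CD43- against day 4 cells, from 0 to 1 (day 6 to 9), 0 to 2 (day 9 to 12) and 0 to 1 (day 12 to 16) in CD43- cells, from 1 to 2 (day 6 to 9) and 0 to 1 (day 12 to 16) in CD43+ cells, and from 1 to 2 for each of the 3 changes of the difference. With a replicate block the count on day 6 was 6 with or without the other populations, and the block changed no call of the 10 factors in any comparison. Median-of-ratios scaling moved the median of all genes by -0.14 on day 6 and -0.21 on day 9 between the fractions, by 0.15 in CD43+ cells (day 12 against day 9, and day 16 against day 6), and by 0.11 for the change of the difference from day 9 to day 12.

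Limits are the unknown depth, values close to ranks, mixed CD43- cells, 3 replicates a population, 1 cell line, 1 undifferentiated sample, and an unknown map of samples to sequencing companies, whose part in the results was not tested.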
